A study of Mus musculus with 6 samples.

Results

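The Dlx genes (Dlx1 to Dlx6) and the Msx genes Msx1 and Msx2 encode homeodomain transcription factors. These 8 genes were taken by symbol from the 17213 genes of a count table of mouse dental follicle cells. All 8 had a row. The rule used no measured value, but the choice was made with earlier results of these data known. The cells came from mandibular molars at postnatal day 8, carried the red reporter tdTomato, were labelled as PTHrP+ dental follicle cells and were isolated by fluorescence-activated sorting. The labels give 3 libraries the genotype Pth1r(+/-), called Het here, and 3 the genotype Pth1r(-/-), called KO here, each group with replicates 0, 1 and 2. The series text calls both genotypes conditional and gives a tamoxifen pulse at P3, whereas the sample descriptions give P8. The sources used here do not give the driver of the recombinase and of the reporter, or whether libraries hold pooled animals. Whether replicates are separate animals is not said, and every p below speaks only to the spread among these 6 libraries, which may be technical.

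Dlx and Msx proteins bind similar short AT-rich DNA sites through the homeodomain. Dlx proteins are known mainly as activators and Msx proteins as repressors, and members of the 2 families can bind each other. The Dlx genes lie in neighbouring pairs transcribed towards each other, and nested Dlx expression in the branchial arches sets upper against lower jaw identity, downstream of endothelin signalling. In teeth, Dlx1 and Dlx2 are needed for upper molars, Msx1 is needed for tooth germs to pass the bud stage, Msx2 acts in enamel epithelium and bone, and Dlx3 and Dlx5 act in cells that make mineralised matrix.

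The homeobox stretches of 7 members below are shown to compare how alike the genes are there, since reads of similar genes could be mixed up. The genes also differ in how this stretch is split between exons. Each is 51 bases of the spliced coding sequence, 5′ to 3′ on the gene's own strand, covering homeodomain positions 42 to 58, which hold the helix that contacts DNA. Capitals mark the 6 codons of positions 48 to 53. The sequences are from the GENCODE M21 transcripts of GRCm38, the assembly named mm10 in the labels.
Dlx1: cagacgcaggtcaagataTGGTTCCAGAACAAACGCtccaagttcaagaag
Dlx2: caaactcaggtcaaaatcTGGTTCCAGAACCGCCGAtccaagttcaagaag
Dlx3: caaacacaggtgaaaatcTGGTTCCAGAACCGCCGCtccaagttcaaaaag
Dlx4: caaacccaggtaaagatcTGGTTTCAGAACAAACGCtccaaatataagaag
Dlx5: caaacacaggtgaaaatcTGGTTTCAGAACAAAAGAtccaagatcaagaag
Dlx6: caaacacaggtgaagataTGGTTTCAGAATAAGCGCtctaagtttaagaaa
Msx2: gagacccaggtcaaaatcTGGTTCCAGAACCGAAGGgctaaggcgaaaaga

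The 18 capital bases differed between all 7 genes but encoded only 2 versions of the peptide, 1 shared by Dlx1, Dlx4, Dlx5 and Dlx6 and the other by Dlx2, Dlx3 and Msx2. In the 6 Dlx genes an intron split this stretch between exons 2 and 3 of 3, whereas in Msx2 it lay wholly in exon 2 of 2. Over the whole homeobox of 180 bases, identity between Dlx genes was 66.1 to 81.7%, and between a Dlx gene and Msx2 54.4 to 64.4%. The encoded homeodomains were closer, at 78.3 to 96.7% among Dlx proteins, against 51.7 to 60% between a Dlx protein and Msx2. The closest Dlx homeodomains were those of Dlx1 and Dlx6 (96.7%) and of Dlx2 and Dlx5 (93.3%), which lie in different gene pairs. The longest run of bases shared exactly by annotated transcripts of 2 of these 7 genes was 44, between Dlx6 and Msx2. It was 26 or fewer in the other pairs. The search covered whole transcripts, and the place of the run was not determined. The homeoboxes of Dlx6 and Msx2 were 56.7% identical. The sources used here do not say how reads matching more than 1 gene were counted.

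In mm10 coordinates, Dlx1 (chr2:71528113-71533981, plus strand) and Dlx2 (chr2:71543408-71546754, minus strand) were 9426 bases apart. Dlx3 (chr11:95120119-95125296, plus strand) and Dlx4 (chr11:95140447-95146263, minus strand) were 15150 bases apart. Dlx6 (chr6:6863334-6868568, plus strand) and Dlx5 (chr6:6877805-6882085, minus strand) were 9236 bases apart. Msx1 (chr5:37820485-37824583, minus strand) and Msx2 (chr13:53466884-53473074, minus strand) lie alone on their chromosomes with respect to the other members. The printed stretches, introns included, span chr2:71531148-71532305 in Dlx1, chr2:71544883-71545392 in Dlx2, chr11:95121890-95123450 in Dlx3 and chr11:95141428-95141797 in Dlx4. For the others the spans are chr6:6878447-6879534 in Dlx5, chr6:6865263-6867082 in Dlx6 and chr13:53468376-53468426 in Msx2.

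Library totals ran from 34019925 to 66147200 counts. Het replicate 2 stood apart: it alone lay far out on the first principal component, which held 40.6% of the variance, and after thinning to equal depth it had 14653 detected genes against 15175 to 15914 in the others. The members' differences and pair ratios below are therefore also given without it, while the gene lists, antisense transcripts and nearest patterns include it. Pth1r, the targeted receptor gene, went against the labels: its CPM (counts scaled to a common library total with edgeR's trimmed mean of M values) were 371, 286 and 346 under the label Het, below the 961, 608 and 472 under the label KO. That log2 difference was 1.02 (edgeR's quasi-likelihood test, Benjamini-Hochberg adjusted p = 0.740). With the replicate number as a block, its adjusted p was 0.797 in edgeR and 0.00416 in DESeq2, so the call depended on the tool. Counts outside a deleted part of the gene would not check the labels. Each KO against Het direction below therefore refers to libraries as labelled. Pthlh, which encodes PTHrP, was present in all libraries at 260 to 350 CPM. The summed CPM of 7 dental follicle markers other than the general collagen gene Col1a1, Pthlh and Pth1r among them, was 4703 to 6063. With Col1a1 the sum ran from 14441 CPM in Het replicate 2 to 46715 CPM in KO replicate 0. Ambn, an enamel matrix gene of ameloblasts, was also present in all, at 1493 to 6067 CPM.

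All 8 members had counts in all 6 libraries, from 282 for Dlx6 in Het replicate 2 to 18390 for Dlx2 in Het replicate 0. Compared per length, as FPKM (fragments per kilobase of transcript and per unit of library size, computed by the authors), they lay between the 78.2 and the 96.9 percentile of the 23107 genes in that table. Dlx5 had the highest mean level, 133 ± 22.6 FPKM (SD, n = 6 libraries), followed by Msx1 at 132 ± 42.1, Dlx2 at 120 ± 41.3 and Msx2 at 77.7 ± 31.8 FPKM. Dlx3 stood at 59.5 ± 16.6 FPKM and Dlx4 at 43.3 ± 10.6 FPKM. Dlx1 and Dlx6 were lowest, at 17.5 ± 1.53 and 16.5 ± 3.89 FPKM. Between neighbours in this order, only the ranges of Dlx4 (31.9 to 58.4 FPKM) and Dlx1 (15.7 to 19.9 FPKM) did not overlap. Dlx5, Msx1 and Dlx2 each exceeded the next gene in the order in 3, 3 and 6 of 6 libraries.

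**Figure D1:**
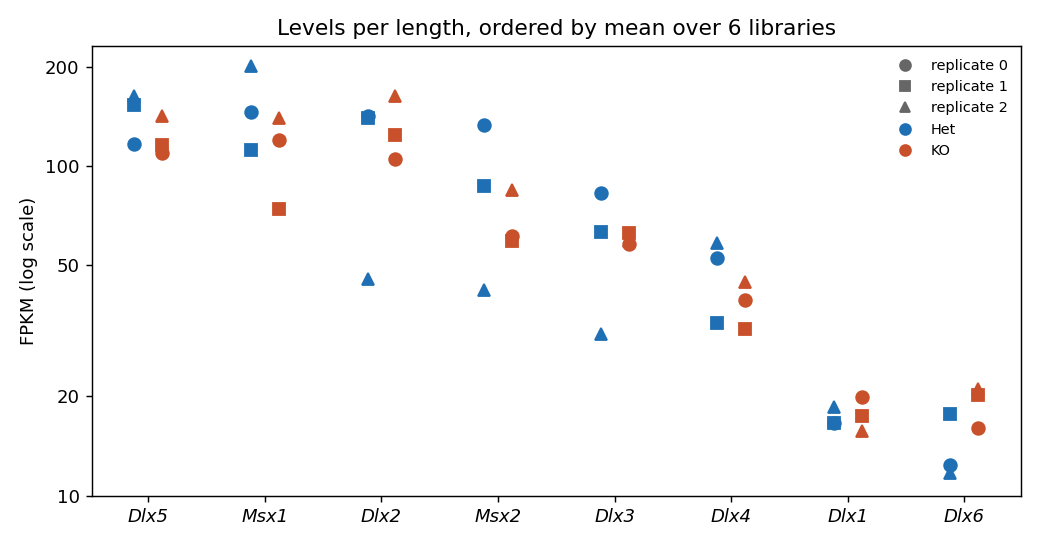
Level per length of the 8 genes, in FPKM on a log axis, with genes ordered by their mean over the 6 libraries (colours are the groups, shapes the replicate numbers). Dlx1 and Dlx6 lie below every value of the other 6 genes, and Het replicate 2 is the lowest point for Dlx2, Msx2 and Dlx3.

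Within the neighbouring pairs, 1 gene was usually far more abundant per length. The FPKM of Dlx2 exceeded that of Dlx1 in 6 of 6 libraries, by 2.45 to 10.4 times (median 7.78). Dlx5 exceeded Dlx6 in 6 of 6 libraries, by 5.73 to 14.0 times (median 7.74), or by 5.73 to 9.43 times in the 4 libraries numbered 0 and 1. Dlx3 exceeded Dlx4 in 5 of 6 libraries, with a median ratio of 1.53. The exception was Het replicate 2, where the ratio of Dlx3 to Dlx4 was 0.531. Msx1 exceeded Msx2 in 6 of 6 libraries, by 1.10 to 4.77 times (median 1.47), or by 1.10 to 1.95 times in the 4 libraries numbered 0 and 1. The libraries numbered 2 had another relation of FPKM to counts for both Msx genes, Dlx5 and Dlx6, given below. In KO replicate 2 the counts of Msx1 were below those of Msx2 (ratio 0.707). Dlx2, Dlx3 and Dlx5 belong to one ancestral branch of the family and Dlx1, Dlx4 and Dlx6 to the other, so that in each pair the member of the Dlx2, Dlx3 and Dlx5 branch had the higher median.

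FPKM of the Msx genes also differed from CPM by replicate number. For this ratio, CPM were the authors' estimated counts over their plain library totals. The ratio of FPKM to CPM was 0.351 and 0.348 for Msx2 in the 2 libraries numbered 2, against 0.512 to 0.551 in the other 4. For Msx1 the ratio was 0.795 and 0.818 in the libraries numbered 2, against 0.561 to 0.658 in the others. Dlx6 gave 1.48 and 1.57 against 1.21 to 1.26, and Dlx5 0.987 and 1.03 against 0.868 to 0.905. The libraries numbered 2 also lay apart for Dlx1 and Dlx4, but not for Dlx2 and Dlx3. The same held across 10095 genes, with log2 FPKM per count centred on each gene's mean. It correlated at r = 0.97 to 0.98 between same-numbered libraries, against -0.98 to 0.84 between differently numbered ones. Genes are not independent replicates. Comparisons between groups below therefore rest on counts.

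No member passed the test between the groups, and neither did any other gene. With a threshold of 0.05 on the adjusted p, edgeR's quasi-likelihood test called 0 of the 8 members and 0 of all 14632 genes tested (0%). At an unadjusted p under 0.05 it called 0 members, against 628 genes (4.29%) of all tested, 2.58% with KO higher and 1.71% with KO lower. DESeq2 called 0 members and 87 genes in all (0.509% of those with an adjusted p). By the fitted values 4 members were on the lower side in KO and 4 on the higher side, with a median log2 difference of -0.10, against -0.01 over all genes tested. Without Het replicate 2, 6 members were on the lower side, with a median of -0.20. In that fit the log2 difference was 0.14 for Dlx1, -0.21 for Dlx4, -0.20 for Dlx5, 0.27 for Dlx6 and -0.37 for Msx1, each in the direction it had with all 6 libraries.

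**Figure D2:**
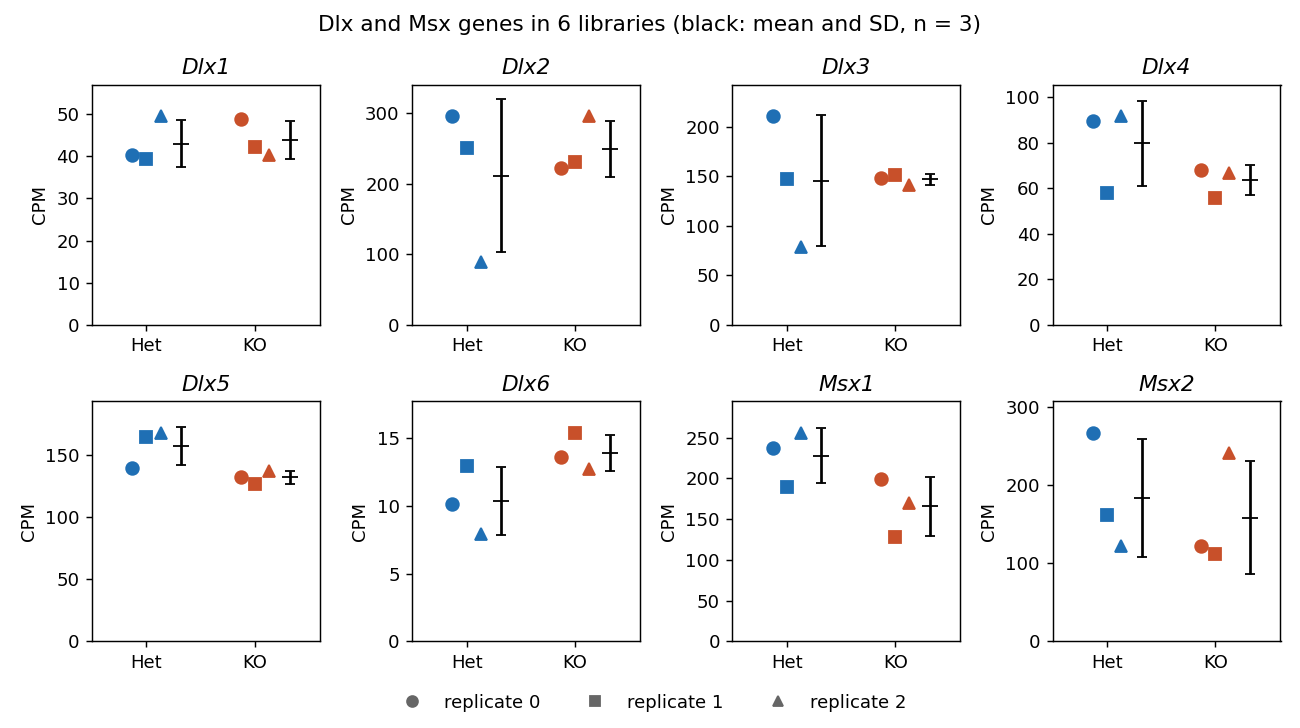
CPM of each gene in the 3 Het and 3 KO libraries, with replicate numbers as shapes and the mean and SD of each group in black (n = 3). The groups overlap for every gene except Dlx5, and Het replicate 2 is the lowest library for Dlx2, Dlx3 and Dlx6.

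Dlx5, which acts in osteoblast and odontoblast precursors, was the only member whose groups did not overlap. Its level was 139, 164 and 168 CPM in Het replicates 0, 1 and 2, and 132, 126 and 137 CPM in KO replicates 0, 1 and 2. The highest KO library was thus just under the lowest Het library. Across all genes tested, 10.7% had groups that did not overlap, 4.83% with KO lower and 5.84% with KO higher, so 1 of 8 members was near the background. The Het mean was 157 ± 15.5 CPM and the KO mean 132 ± 5.46 CPM (SD, n = 3 each). The log2 difference was -0.25 (SE 0.17, 95% interval -0.64 to 0.13, edgeR quasi-likelihood adjusted p = 0.976).

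Dlx6, the neighbour of Dlx5, leaned the other way. It stood at 10.1, 12.9 and 7.92 CPM in the Het libraries and at 13.6, 15.4 and 12.7 CPM in the KO libraries. Het replicate 1 reached into the KO range, just above KO replicate 2, and the other 2 Het libraries lay below it. The log2 difference was 0.43 (SE 0.30, 95% interval -0.26 to 1.12, edgeR quasi-likelihood adjusted p = 0.976). Because a ratio within a library does not depend on how that library is scaled, the 2 genes were also compared directly. There were 13.8, 12.7 and 21.2 counts of Dlx5 for each count of Dlx6 in the Het libraries, and 9.73, 8.21 and 10.8 in the KO libraries. The ratio did not overlap between the groups. Its log2 difference was -0.70, from 3.95 ± 0.40 in Het to 3.25 ± 0.20 in KO (SD, n = 3 each). The two-sided exact permutation p was 0.10, the smallest that 3 against 3 libraries allow, or 0.40 after Benjamini-Hochberg adjustment over the 4 gene pairs compared. Within replicate numbers 0, 1 and 2 the KO minus Het log2 ratios were -0.50, -0.63 and -0.97. Their shared sign follows from the groups not overlapping. Without Het replicate 2 the log2 difference was -0.47.

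**Figure D3:**
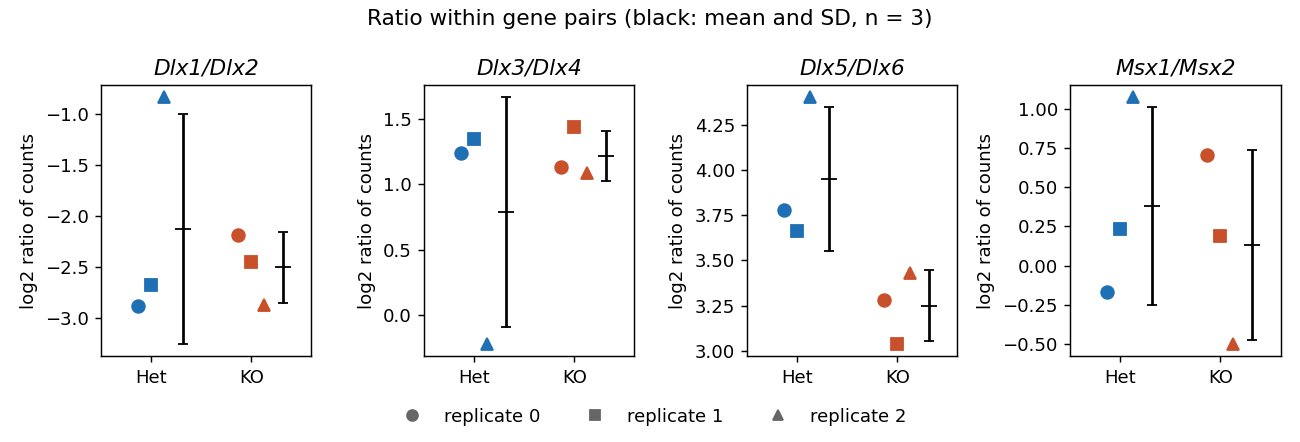
Log2 ratio of counts within the 3 Dlx pairs and the Msx pair, by group and replicate number, with the mean and SD of each group in black (n = 3). Dlx5/Dlx6 is the only ratio whose groups are separate, and in the Dlx1/Dlx2 and Dlx3/Dlx4 panels Het replicate 2 lies apart from the other 5 libraries.

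Msx1, a repressor needed in early tooth mesenchyme, had the smallest unadjusted p among the members. Its level was 238, 190 and 256 CPM in the Het libraries and 199, 127 and 170 CPM in the KO libraries. The highest KO library lay above the lowest Het library, so the groups overlapped. The Het mean was 228 ± 34.1 CPM and the KO mean 166 ± 36.1 CPM (SD, n = 3 each). The log2 difference was -0.46 (SE 0.22, 95% interval -0.96 to 0.04), with an unadjusted p of 0.0673 and an adjusted p of 0.976 by edgeR's quasi-likelihood test. In the edgeR fit blocked on replicate number, the unadjusted p was 0.0229 and the adjusted p 0.797. DESeq2 with that block called 0 members and 1.19% of all genes. By rank of p, Msx1 was at place 883 of 14632.

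Msx2 varied more within the groups than between them. It stood at 267, 161 and 122 CPM in the Het libraries and at 122, 112 and 241 CPM in the KO libraries. The high libraries were Het replicate 0 and KO replicate 2, and the other 4 lay between 112 and 161 CPM. The log2 difference was -0.21 (SE 0.37, 95% interval -1.04 to 0.62, edgeR quasi-likelihood adjusted p = 0.981). Without Het replicate 0 the difference was 0.15, and without Het replicate 2 it was -0.43. In the 4 libraries numbered 0 and 1, a choice made after seeing the data, it was -0.87 with a DESeq2 adjusted p of 0.0435, while edgeR's quasi-likelihood test on the same libraries did not call it (adjusted p = 0.585) and called 0 genes in all. The ratio of Msx1 to Msx2 counts overlapped between the groups, at 0.891, 1.18 and 2.11 in Het and 1.63, 1.14 and 0.707 in KO.

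Dlx2, which with Dlx1 specifies upper-jaw structures and is expressed in both dental epithelium and mesenchyme, was among the more abundant members and the most variable. Its level was 296, 250 and 88.5 CPM in the Het libraries and 222, 231 and 296 CPM in the KO libraries. Het replicate 2 was far below the other 5 libraries. Across all genes tested, the spread of Dlx2 over the 6 libraries (SD of log2 CPM 0.65) was at the 79.1 percentile. For Dlx2 the log2 difference was 0.24 (SE 0.39, 95% interval -0.64 to 1.11, edgeR quasi-likelihood adjusted p = 0.981), and it became -0.12 without Het replicate 2.

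Dlx1, at 40.3, 39.3 and 49.6 CPM in the Het libraries and 48.9, 42.2 and 40.3 CPM in the KO libraries, was the steadiest member. Its spread over the 6 libraries (SD of log2 CPM 0.15) was at the 4.76 percentile of all genes tested, and Het replicate 2 was here the highest library, not the lowest. The log2 difference of Dlx1 was 0.03 (SE 0.20, 95% interval -0.43 to 0.48, edgeR quasi-likelihood adjusted p = 0.999). The ratio of Dlx1 to Dlx2 counts was 0.136, 0.157 and 0.560 in Het and 0.220, 0.183 and 0.136 in KO. Het replicate 2 stood far above the other 5 libraries.

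Dlx3, a factor of hair, bone and enamel mutated in human tricho-dento-osseous syndrome, stood at 211, 148 and 78.5 CPM in the Het libraries and at 149, 151 and 141 CPM in the KO libraries. The KO libraries agreed closely (SD 5.37 CPM), whereas the Het libraries spread on both sides of them (SD 66.2 CPM). For Dlx3 the log2 difference was 0.01 (SE 0.31, 95% interval -0.70 to 0.73, edgeR quasi-likelihood adjusted p = 0.9998). Without Het replicate 2 it was -0.28.

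Dlx4, a family member also expressed in placenta, stood at 89.4, 58 and 91.6 CPM in the Het libraries and at 67.9, 55.8 and 66.6 CPM in the KO libraries. Het replicates 0 and 2 were above all KO libraries, and Het replicate 1 lay among them. For Dlx4 the log2 difference was -0.33 (SE 0.23, 95% interval -0.84 to 0.18, edgeR quasi-likelihood adjusted p = 0.976). The ratio of Dlx3 to Dlx4 counts was 2.36, 2.55 and 0.857 in Het and 2.19, 2.71 and 2.12 in KO, so that Het replicate 2 was the only library with fewer counts of Dlx3 than of Dlx4.

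**Figure D4:**
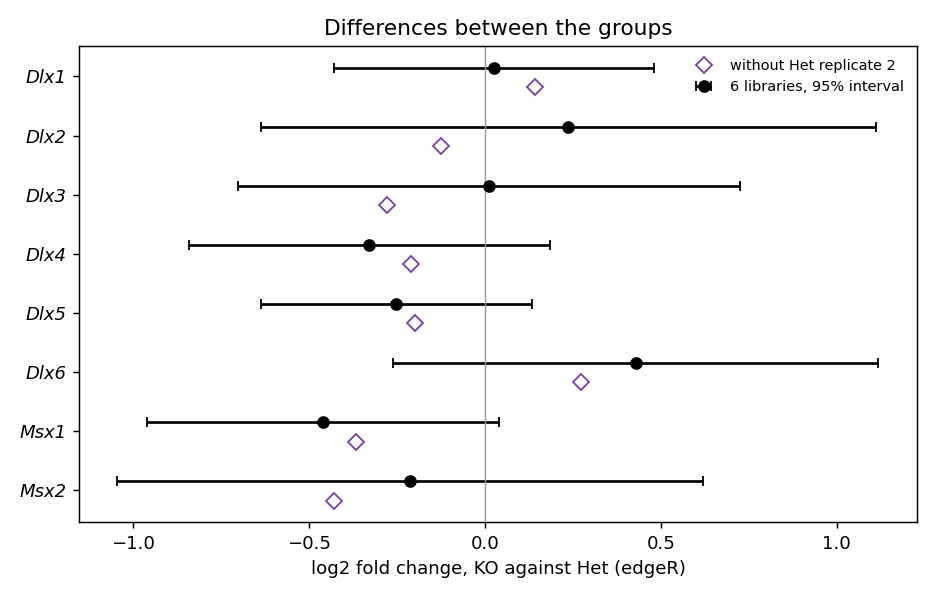
Log2 fold change of KO against Het for the 8 genes from edgeR, with 95% intervals (black), and the fitted value without Het replicate 2 (open diamonds). Every interval includes 0, and without that library the points of Dlx2 and Dlx3 move to the other side of 0.

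Set against the Het library of the same replicate number, 4 of 8 members differed the same way in all 3 numbers, against 31.2% of all genes tested. Dlx4, Dlx5 and Msx1 were lower in KO in all 3 numbers (14.9% of all genes), and Dlx6 was higher in all 3 (16.2% of all genes). For Dlx5 this follows from its groups not overlapping. For Msx1 the log2 ratios of KO to Het CPM were -0.25, -0.58 and -0.59 for numbers 0, 1 and 2. Those of Dlx5 were -0.08, -0.38 and -0.29. Dlx4 gave -0.40, -0.06 and -0.46. Dlx6 gave 0.42, 0.25 and 0.69. Dlx2 gave -0.42, -0.12 and 1.74, and Msx2 -1.13, -0.53 and 0.99, so for both the libraries numbered 2 went against the others.

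**Figure D5:**
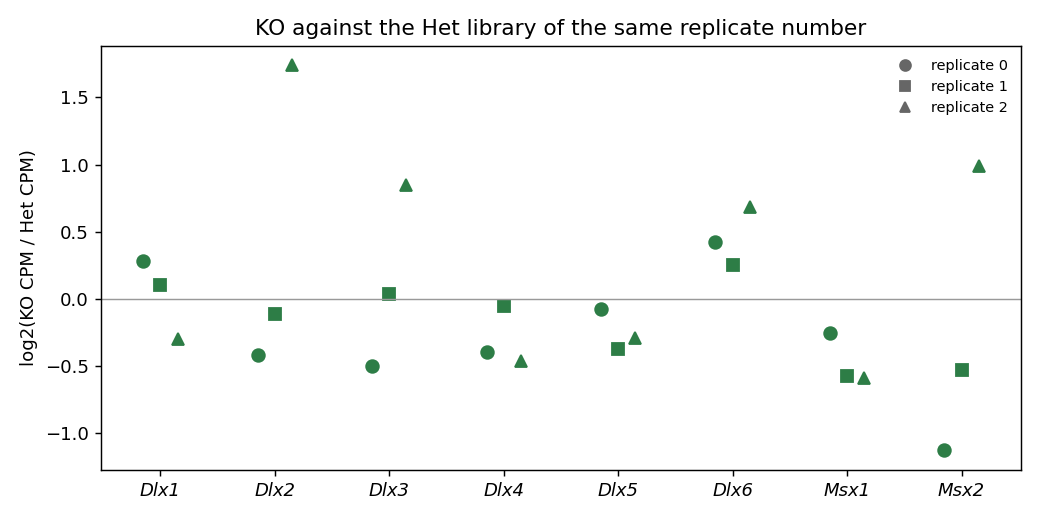
Log2 ratio of KO to Het CPM between libraries of the same replicate number (shapes), for each gene. Dlx4, Dlx5 and Msx1 lie below 0 and Dlx6 above 0 for all 3 numbers, while number 2 of Dlx2, Dlx3 and Msx2 lies far above the other numbers.

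Antisense transcripts lie beside several members, and the sources used here do not say whether the counting used strand. Reads of a member and its antisense partner therefore cannot be told apart where their exons overlap. Dlx1as overlapped 6.21% of the exonic bases of Dlx1 and stood at 5.36, 12.4 and 8.60 CPM in Het and 4.32, 12.6 and 7.90 CPM in KO. Dlx6as1 (Dlx6os1 in GENCODE), the host of the Evf RNAs known to act on Dlx5 and Dlx6 enhancers in forebrain, overlapped none of the exonic bases of Dlx6. It had more CPM than Dlx6 in each library, at 47.3, 104 and 56.8 in Het and 30.3, 87.8 and 92.3 in KO. Per length, Dlx6as1 exceeded Dlx6 only in the libraries numbered 1, at 26.8 against 17.7 FPKM in Het and 22.2 against 20.2 FPKM in KO. In CPM the groups of Dlx6as1 overlapped, with a log2 difference of 0.02 (SE 0.44), and Het replicate 1 and KO replicates 1 and 2 were the high libraries. Dlx6as2 overlapped 4.38% of Dlx6 and was near 1 CPM (0.279 to 3.66). The sum of Dlx6 and both antisense transcripts had a log2 difference of 0.08 (SE 0.38) in the estimated counts, against 0.44 for Dlx6 alone. Most of that sum was Dlx6as1, with means of 68.6 CPM in Het and 69.4 CPM in KO, against 10.6 and 14.3 CPM for Dlx6. The sum is therefore not a value of Dlx6 itself.

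The antisense gene of Msx1 depended on the table. The span of Msx1as (Msx1os in RefSeq) covered 38.3% of the exonic bases of Msx1. In the whole-number counts it stood at 13.3, 9.66 and 10.7 CPM in Het and 10.7, 9.96 and 9.63 CPM in KO, which was 3.30% of its estimated counts in the authors' second table. In those estimated counts it stood at 397, 336 and 405 CPM in Het and 323, 221 and 289 CPM in KO, above Msx1 itself in every library. Per length, Msx1as was below Msx1 in Het replicate 2 (185 against 200 FPKM) and KO replicate 2 (138 against 140 FPKM), and above it in the others. The log2 difference of Msx1as in the estimated counts was -0.45 (SE 0.20, edgeR quasi-likelihood adjusted p = 0.971), beside -0.46 for Msx1. Msx1 had the same counts in both tables, as had 6 of the 8 members. Dlx1 and Dlx6 had 95.4% and 96.3% of their estimated counts in the whole-number table.

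Genes with the most similar pattern were found by the correlation of log2 CPM over the 6 libraries, among 8568 genes whose mean log2 CPM reached 4 (8569 for Dlx6). With so few libraries high values are common, and 13 to 149 genes per member exceeded r = 0.95. The pattern of Dlx1 was most like those of Slc29a1 (r = 0.99), a nucleoside transporter, and Pappa2 (r = 0.98), a protease of IGF-binding proteins. For Dlx2 they were St7 (r = 0.997) and Vma21 (r = 0.991), and for Dlx3 1500003O03Rik and Rhog (both r = 0.99). For Dlx4 they were Higd1a and Pih1d1 (both r = 0.99), for Dlx5 Lysmd1 (r = 0.99) and Abhd5 (r = 0.98), and for Dlx6 Ccdc41 and Tsen15 (both r = 0.99). Msx1 was most like Ilk, the integrin-linked kinase, and Thap7 (both r = 0.99). Msx2 was most like Asnsd1 (r = 0.99) and Gabarapl1 (r = 0.98). No member was among the 2 nearest genes of another.

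Of the first-arch pathway around the Dlx genes, the receptor gene Ednra had 56.7 to 91.4 CPM over the 6 libraries. Hand1 and Hand2, targets of the endothelin and Dlx pathway in the lower jaw, were listed at 0 in all 6 libraries of the estimated counts. Edn1, the ligand, had 20 estimated counts in Het replicate 0 and was listed at 0 in the other 5. Of 17 tested genes of endothelin and first-arch patterning, edgeR called 0, and 1 at an unadjusted p under 0.05, against 4.29% of all genes tested. Fitted values were on the higher side for 7 and on the lower side for 10, against 49.0% higher over all genes. Their median log2 difference was -0.02. Mef2c, a transcription factor downstream of the endothelin receptor, stood at 172, 139 and 83.2 CPM in Het and 318, 315 and 217 CPM in KO (log2 difference 1.11, edgeR quasi-likelihood adjusted p = 0.734), and Plcb3, a phospholipase, at a log2 difference of 0.42.

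Bone morphogenetic proteins (BMPs) are the best known inducers of Msx1, Msx2 and Dlx5. Of 25 tested genes of BMP input, 0 were called by edgeR, and 1 at an unadjusted p under 0.05, against 4.29% of all genes tested. Fitted values were on the higher side for 18 and on the lower side for 7, against 49.0% higher over all genes. Their median was 0.16, and the list was not tested as a set. Smad1, a BMP signal transducer, stood at 93.7, 114 and 117 CPM in Het and 170, 188 and 145 CPM in KO (log2 difference 0.63, edgeR quasi-likelihood adjusted p = 0.901). Nog, a secreted BMP antagonist, had a log2 difference of 0.68 with overlapping groups. For 24 cofactors and partners of homeoproteins, 0 were called, also at an unadjusted p under 0.05. Of their fitted values 12 were on each side, and the median was 0.02. Tle6, of the Groucho-related corepressor family, and Pbx2, a homeodomain cofactor, had log2 differences of -0.65 and -0.69.

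Among 16 tested genes of mineralised tissue, many of them known targets of Dlx and Msx proteins, edgeR called 0, as among all genes tested. At an unadjusted p under 0.05 it called 4, against 4.29% of all genes. Fitted values were on the higher side for 14 and on the lower side for 2, against 49.0% higher over all genes. Their median was 0.55. The list was not tested as a set. Dmp1, a matrix phosphoprotein, stood at 72.4, 29.0 and 84.8 CPM in Het and 536, 248 and 138 CPM in KO (log2 difference 2.31, edgeR quasi-likelihood adjusted p = 0.634). Spp1, which encodes osteopontin, had a log2 difference of 0.999, with 0.648 as its edgeR quasi-likelihood adjusted p. Among 13 tested genes that neighbour the members on their chromosomes, 0 were called, and 1 at an unadjusted p under 0.05. Fitted values were on the higher side for 4 and on the lower side for 9, with a median of -0.08. Myst2, a histone acetyltransferase gene in the Dlx3 and Dlx4 region, had groups that did not overlap, at 87.1, 82.2 and 67.3 CPM in Het and 108, 109 and 112 CPM in KO (log2 difference 0.47, edgeR quasi-likelihood adjusted p = 0.976). Tac1, near Dlx5 and Dlx6, had a log2 difference of -0.94 with overlapping groups.

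Dlx and Msx genes are also expressed in dental epithelium, enamel-forming ameloblasts and osteoblasts, so markers of these cells are given beside the results. In bulk libraries, fewer cells of a type and less RNA per cell cannot be told apart. The summed CPM of 9 basal and keratin epithelium markers was 1548 to 2235 in Het and 991 to 2507 in KO. It was highest in KO replicate 2 and Het replicate 0, the same libraries in which Msx2 was highest. The sum of 7 ameloblast markers was 4507 to 7734 in Het and 4308 to 9564 in KO. The sum of 7 osteoblast markers was 4657 to 11789 in Het and 12087 to 20369 in KO, with all 7 fitted values on the higher side and 0 called by edgeR. Each of the 7 genes had overlapping groups. Ibsp made up most of the sum, and its CPM was 10458 in Het replicate 2 against 9714 in KO replicate 1. All 7 are also among the genes of mineralised tissue above. The part of these cells in the members' values was not tested. Markers of GABA neurons, another Dlx-expressing cell type, were at or near 0: Gad1 and Slc32a1 were listed at 0 and Gad2 stood at 0.112 to 0.278 CPM.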

How the data were processed

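RNA of sorted tdTomato+ cells was amplified with a SMART-Seq v4 kit and made into libraries with Nextera XT, per the labels' protocols. The submitters' processing notes name the build mm10 and, without roles, HTSeq, DESeq2, Cufflinks and Cuffdiff beside FastQC and the aligners Bowtie2 2.2.1 and TopHat2 2.0.13. The sources used here do not give the annotation or whether counting used strand. The authors deposited whole-number counts for 17213 genes, estimated counts for 23107 genes (1.66% not whole, rounded here) and FPKM values, which they normalized to gene length and library size. Deposited tables of scaled and transformed counts were not used.

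Counts were tested with edgeR 4.0.16 (TMM factors, filterByExpr, quasi-likelihood test, Benjamini-Hochberg adjustment over 14632 genes), with DESeq2 1.42.0 and limma 3.58.1 as alternatives. Ratios within gene pairs used log2 of counts with 0.5 added and an exact permutation test. The edgeR test was first tested on simulated data. Alternatives were other scalings and filters, the estimated counts, FPKM, a replicate block in edgeR and leaving out each library. Added after seeing the data were antisense counts summed into their partner and DESeq2 with the replicate block. The blocked pair ratios and the fits on the 4 libraries numbered 0 and 1 were also added then. No pair of libraries agreed within sampling noise. Deviations of same-numbered libraries from their group means correlated at r = 0.22, 0.12 and 0.11 for numbers 0, 1 and 2. All were over 0.1, the level at which the rule used here takes the numbers to pair the libraries. Differently numbered libraries were not compared in this way, so these values alone do not show pairing, and no label gives it. In FPKM per count they were compared, and same-numbered libraries were the more alike, as given above. The main edgeR test and the permutation test did not use the numbers. Amplified reads carry no molecular identifiers.

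The members and lists were chosen with earlier results of these data known. Named were the 8 members, Pth1r and Pthlh, the antisense transcripts, the 2 tested genes with the smallest unadjusted p in each other list, and the 2 genes with the pattern most like each member. Col1a1, Ambn, Ednra and Ibsp were named outside this rule. Other genes named at or near 0 were chosen after their values were seen. The sequence of the remaining member is not reported here.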

Additional observations from a re-analysis of the deposited data

How the results depend on the processing

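Dlx4, Dlx5, Dlx6 and Msx1 kept their direction in 20 of 20 alternatives, and no alternative called any of them. The alternatives refit the same 6 libraries or parts of them, so a kept direction is not independent evidence. The share of all genes that kept their direction was not computed. The lowest value counted for Dlx6, 0.08, was that of its sum with the antisense transcripts, which was mostly Dlx6as1. Dlx2 took the opposite sign without Het replicate 2 (-0.12) and in the 4 libraries numbered 0 and 1 (-0.26 with DESeq2, -0.27 with edgeR). Dlx3 did so without Het replicate 2 (-0.28), without KO replicate 1 (-0.01), with limma-voom (-0.12) and in those 4 libraries (-0.25 with both tools). Dlx1 did so when KO replicate 0 (-0.043), Het replicate 1 (-0.035) or Het replicate 0 (-0.024) was left out, and Msx2 without Het replicate 0 (0.15). In the 4 libraries numbered 0 and 1, DESeq2 called 1 member, Msx2 (-0.87), and 172 genes. The causes were not tested.

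Leaving out 1 library gave log2 differences of -0.04 to 0.14 for Dlx1, -0.12 to 0.55 for Dlx2, -0.28 to 0.37 for Dlx3, -0.51 to -0.21 for Dlx4, -0.34 to -0.20 for Dlx5, 0.27 to 0.62 for Dlx6, -0.60 to -0.30 for Msx1 and -0.65 to 0.15 for Msx2. Without Het replicate 2, the log2 ratios of Dlx1/Dlx2, Dlx3/Dlx4 and Msx1/Msx2 changed sign, to 0.27, -0.076 and 0.10, and Msx1/Msx2 was 0.07 without KO replicate 2. Over single libraries left out, the ratios ranged from -0.75 to 0.27, from -0.076 to 0.71, from -0.84 to -0.47 for Dlx5/Dlx6 and from -0.54 to 0.10.

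The count of genes called, 0 with edgeR, was 87 with DESeq2, 1 with limma-voom, 1 in each of the 3 FPKM fits and 0 to 1 on leaving out 1 library. With the replicate block it stayed 0 with edgeR and was 185 with DESeq2, and the block called 0 members with either tool. With the replicate block the Msx1 log2 difference was -0.47 and the Dlx5/Dlx6 log2 ratio difference was -0.70 (SE 0.14). With 3 libraries a group, the members' 95% intervals reached as far as -1.04 for Msx2 and 1.12 for Dlx6.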
